A study of Mus musculus with 6 samples.

Results

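The 10 genes described here encode the channels and sensors that carry calcium and potassium in T cells: the calcium channel subunits Orai1, Orai2 and Orai3, the endoplasmic reticulum calcium sensors Stim1 and Stim2, the inositol trisphosphate (IP3) receptors Itpr1, Itpr2 and Itpr3, and the potassium channels Kcna3 (Kv1.3) and Kcnn4 (KCa3.1). They were taken by name from a table of 48440 genes, and all 10 were found and passed the filter that left 13314 genes for testing. RNA was sequenced from primary CD4+ (helper) T cells of wildtype mice, taken from spleen and lymph node. The cells of all 6 libraries had been activated once before, with 3 days on plate-bound anti-CD3 and anti-CD28, and had then spent 5 days in interleukin 2. The 3 unstimulated libraries come from such cells left at rest, and the 3 stimulated libraries from cells given antibodies against CD3 and CD28 again for 4 hours. The resting state is therefore that of expanded T cell blasts and not of naive T cells. The sources used here do not give the strain, age or sex of the mice.

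When the T cell receptor is engaged, phospholipase C makes IP3, which opens the IP3 receptors and empties the calcium store of the endoplasmic reticulum. STIM proteins sense the emptied store and open ORAI channels in the plasma membrane, the process called store-operated calcium entry, and the calcium that enters activates calcineurin and NFAT. Potassium leaving through Kv1.3 and KCa3.1 keeps the membrane negative and so keeps calcium flowing in.

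Total counts per library ran from 29897720 to 30252923. As a check of the labels, Il2, which T cells make on stimulation, was at 0.377 to 0.605 CPM at rest and at 216 to 313 CPM after stimulation, where CPM relates reads to the library size scaled by edgeR's TMM method. All 6 markers of CD4+ T cells were present and fell after stimulation, with Cd4 at 949 to 1028 CPM at rest and 317 to 350.1 CPM after stimulation. Of the markers of other cell types, the highest were Ighm and, after stimulation, Eomes (58.2 to 112 CPM), which is listed for NK cells. Ighm made up most of the summed B cell markers (1405 to 2865 CPM at rest, 731 to 1283 CPM after stimulation, 7 of 7 markers detected). The B cell sum thus differed between groups and between replicate numbers, and their part in the results was not tested. In these bulk samples, fewer cells of a type and less RNA per cell cannot be told apart.

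The sequences of 4 promoters are shown because these 2 pairs of close relatives moved in opposite directions after stimulation. RefSeq windows (GRCm38.p6) were matched for 9 of the 10 genes, all but Itpr1. The bases before the annotated start are printed 5′ to 3′ on the strand of the gene, at chr5:123014824-123015073 (plus strand) for Orai1, chr5:136170714-136170906 (minus strand) for Orai2, chr7:102267569-102267805 (plus strand) for Stim1 and chr5:53998273-53998498 (plus strand) for Stim2. Capitals mark matches to any of 5 motifs searched on both strands.
Orai1: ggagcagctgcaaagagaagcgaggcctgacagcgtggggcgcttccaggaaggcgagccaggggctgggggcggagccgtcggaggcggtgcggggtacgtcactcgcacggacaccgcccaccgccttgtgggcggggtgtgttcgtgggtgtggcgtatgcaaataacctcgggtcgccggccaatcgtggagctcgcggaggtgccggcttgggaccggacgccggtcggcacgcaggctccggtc
Orai2: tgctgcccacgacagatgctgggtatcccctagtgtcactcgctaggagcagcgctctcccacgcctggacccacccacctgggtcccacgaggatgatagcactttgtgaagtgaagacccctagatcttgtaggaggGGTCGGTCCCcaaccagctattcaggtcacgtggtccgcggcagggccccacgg
Stim1: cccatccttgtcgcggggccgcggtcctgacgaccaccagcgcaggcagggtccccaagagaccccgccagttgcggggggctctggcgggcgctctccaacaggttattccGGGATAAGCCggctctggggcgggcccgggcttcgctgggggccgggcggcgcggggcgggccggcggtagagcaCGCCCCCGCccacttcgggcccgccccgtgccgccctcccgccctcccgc
Stim2: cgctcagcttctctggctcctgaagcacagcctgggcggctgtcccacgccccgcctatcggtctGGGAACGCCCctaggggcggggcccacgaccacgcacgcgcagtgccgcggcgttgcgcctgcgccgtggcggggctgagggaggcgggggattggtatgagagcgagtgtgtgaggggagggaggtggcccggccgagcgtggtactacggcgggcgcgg

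The 5 motifs were GGAAA (the core bound by NFAT factors), TGANTCA (AP-1), GCGNGGGCG (EGR factors), GGGA and CC with 4 bases of any kind between them (NF-kB) and TGACGTCA (CRE), searched in the 250 bases before the RefSeq start. The Orai1 window held none of the 5. The Orai2 window held 1 NF-kB match and 1 GGAAA match, the latter in bases that GENCODE annotates as exon and that are not printed. Stim1 held 1 EGR and 1 NF-kB match, and Stim2 held 1 NF-kB match. Over the 9 windows, GGAAA was found in 3, GCGNGGGCG in 2, the NF-kB motif in 5, and TGANTCA and TGACGTCA in 0. Among all 32851 RefSeq windows of this length, GGAAA was found in 55.6%, TGANTCA in 6.75%, GCGNGGGCG in 4.7%, the NF-kB motif in 17.6% and TGACGTCA in 1.55%. A match describes letters and not a bound site. All 4 printed windows were rich in G and C, which made up 70.8% of the bases before the RefSeq start for Orai1, 63.6% for Orai2, 78.4% for Stim1 and 74.8% for Stim2, against a median of 52.4% over all windows.

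Of the 10 genes, 3 rose after stimulation (Orai1, Stim2 and Kcna3), 5 fell (Orai2, Stim1, Itpr3, Itpr2 and Orai3) and 2 did not pass the test (Kcnn4 and Itpr1), at an adjusted p of 0.05 (edgeR quasi-likelihood test, Benjamini-Hochberg over all tested genes). The stimulus moved much of the transcriptome: 38.4% of all tested genes were called higher and 39.1% lower, 77.5% together. A share of 8 in 10 is thus near the background, and the counts alone are no result about these genes. The median absolute log2 fold change of the 10 genes was 1.33 against 0.90 over all tested genes, and the median signed change -0.38 against -0.04. As the genes were chosen with earlier results of these data known, these medians describe them and are not a test. With edgeR's glmTreat, which asks whether a change exceeds 2-fold, calls were made for 3 genes upward (Orai1, Stim2 and Kcna3), where 17.4% of tested genes were called, and for 3 downward (Orai2, Stim1 and Itpr3), where 18.2% were. The libraries of the groups did not overlap for 8 of the 10 genes, and for 79.8% of tested genes.

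**Figure D1:**
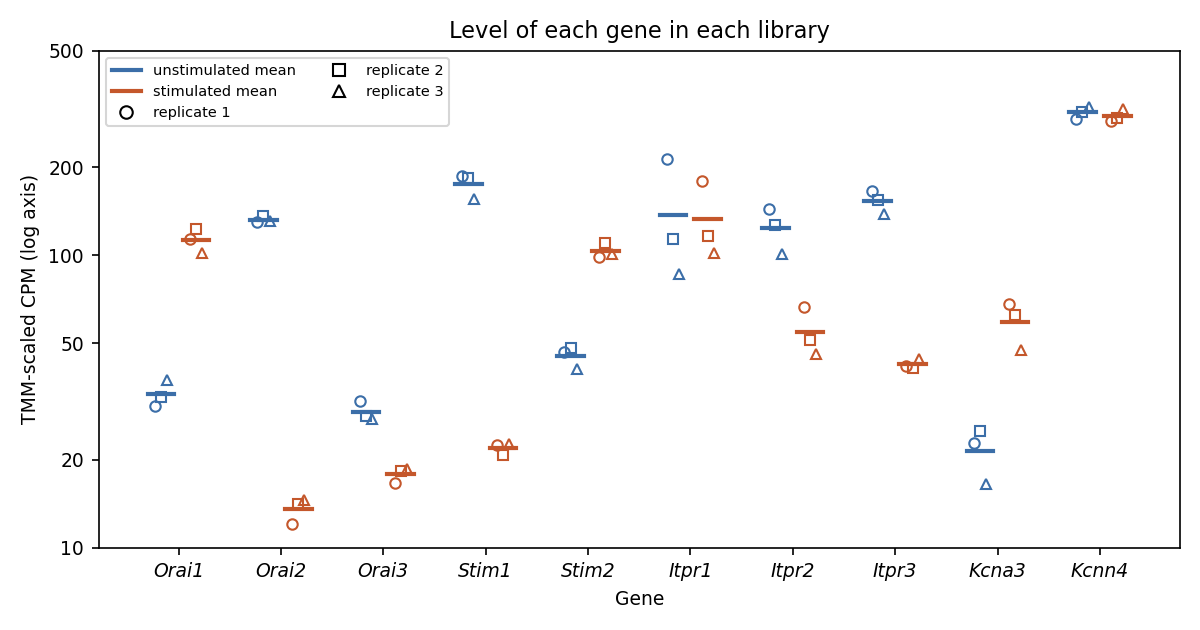
TMM-scaled CPM (log axis) of the 10 genes in each library, with 1 symbol per replicate number and a line at each group mean. Orai2 and Stim1 dropped from means of 132 and 176 CPM to 13.6 and 22.0 CPM while Orai1, Stim2 and Kcna3 rose, and the symbols of Itpr1 and Kcnn4 overlap between groups.

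The pore-forming subunits of the calcium channel moved apart. Orai1 forms the channel that carries most store-operated entry in T cells and is mutated in a human immunodeficiency. It stood at 30.5, 32.7 and 37.6 CPM in unstimulated replicates 1 to 3 and at 114, 123 and 102 CPM in the stimulated ones. Every stimulated library lay above every unstimulated one, by 3.36-fold (log2 fold change 1.75, SE 0.10, edgeR adjusted p = 3.7e-07). Orai1 lies on chromosome 5 (123015074 to 123030456, GRCm38).

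Orai2, a relative that can assemble with Orai1 and dampens the current of the mixed channel, went the other way. Its level was 130.0, 136 and 131 CPM at rest and 12.1, 14.1 and 14.6 CPM after stimulation. The resting libraries were within a narrow range and lay far above the stimulated ones, a fall of 9.72-fold (log2 fold change -3.28, SE 0.087, edgeR adjusted p = 6.6e-09). It was the deepest fall among the 10 genes, and 2.49% of all tested genes had a lower log2 fold change. Orai2 lies on the same chromosome (136147459 to 136170713, minus strand).

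Orai3, a subunit found in mammals only, had 31.7, 28.2 and 27.6 CPM at rest and 16.7, 18.3 and 18.6 CPM after stimulation. The groups did not overlap and the fall was smaller, at 1.63-fold (log2 fold change -0.71, SE 0.090, edgeR adjusted p = 7.7e-05). It did not pass the test for a change of more than 2-fold.

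The store sensors also moved apart. Stim1 is the main sensor for store-operated entry after receptor engagement, and Stim2 is activated by smaller losses of store calcium and helps to hold basal calcium. Stim1 stood at 187, 184 and 156 CPM at rest and at 22.5, 20.8 and 22.7 CPM after stimulation. The fall was 7.99-fold (log2 fold change -3.0, SE 0.092, edgeR adjusted p = 1.1e-08), and 3.42% of tested genes had a lower log2 fold change. Stim2 rose from 46.6, 48.2 and 40.8 CPM to 98.5, 110.1 and 101 CPM. No library of the groups overlapped for either sensor. The rise of Stim2 was 2.28-fold (log2 fold change 1.19, SE 0.084, edgeR adjusted p = 1.4e-06). Stim2 passed the 2-fold test narrowly (edgeR glmTreat, adjusted p = 0.02). It did not pass with library size alone (0.27), with library sizes that leave out the 20 most abundant genes (0.32), without stimulated replicate 2 (0.07), without unstimulated replicate 3 (0.075), or without replicate 2 (0.072) or replicate 3 (0.054) of both groups. Stim1 lies on chromosome 7 (102267806 to 102437319) and Stim2 on chromosome 5 (53998499 to 54121057).

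**Figure D2:**
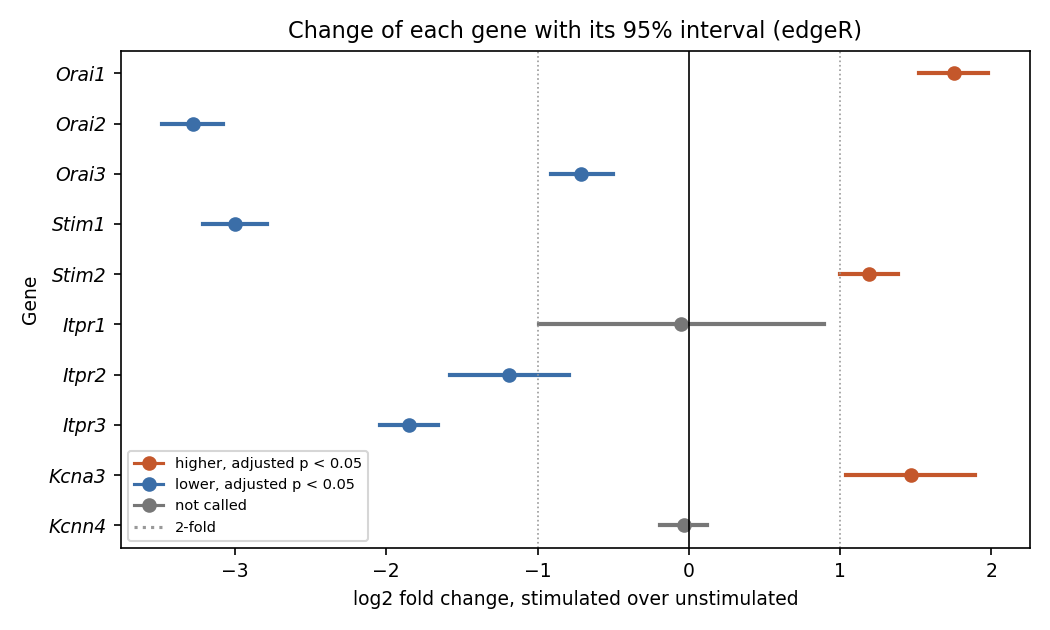
Log2 fold change of each gene, stimulated over unstimulated, with its 95% interval from edgeR, and dotted lines at 2-fold. Orai2 (-3.28) and Stim1 (-3.0) lie far to the left, Orai1 (1.75), Kcna3 (1.47) and Stim2 (1.19) to the right, and the interval of Itpr1 spans from -0.99 to 0.89.

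The ratio of genes within a library does not depend on how libraries are scaled. It was therefore examined for 8 pairs, which were close relatives except for the potassium channels Kcna3 and Kcnn4. Read counts of Stim1 were 4.01, 3.81 and 3.82 times those of Stim2 at rest and 0.229, 0.189 and 0.225 times after stimulation. All 3 stimulated libraries lay far below the resting ones, an 18.2-fold change of the ratio (-4.18 on the log2 scale, with SDs of 0.041 at rest and 0.15 after stimulation, n = 3 each). The Orai1 to Orai2 ratio went from 0.235, 0.241 and 0.287 to 9.38, 8.73 and 7, a 32.8-fold change. The Orai1 to Orai3 ratio increased 5.49-fold and the Orai2 to Orai3 ratio dropped 5.98-fold. For each of the 8 pairs the groups did not overlap and the two-sided exact permutation test gave p = 0.10, and 0.10 after Benjamini-Hochberg adjustment over the pairs. That is the smallest p that 3 libraries against 3 can give, so this test cannot pass 0.05. Taken singly, 79.8% of tested genes had groups that did not overlap. Ratios of other genes were not examined, so the count of pairs without overlap is no result about these families.

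**Figure D3:**
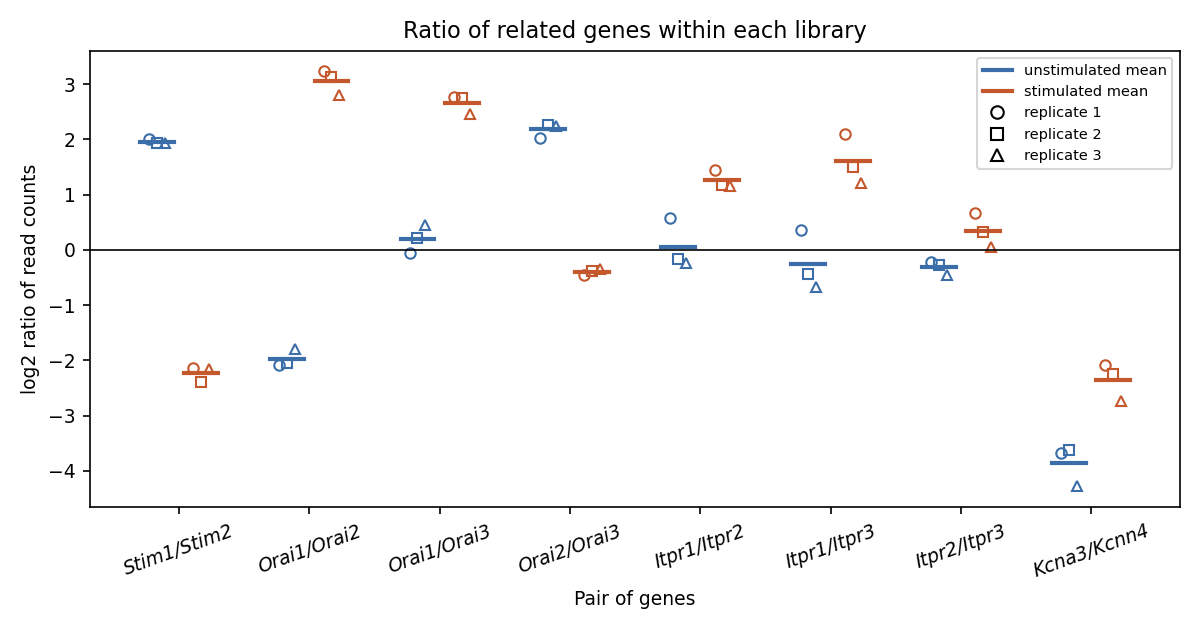
Log2 ratio of read counts for 8 pairs of genes in each library, with 1 symbol per replicate number and a line at each group mean. Stim1/Stim2 crosses from about 2 to below -2 and Orai1/Orai2 from about -2 to about 3. No pair overlaps between groups, and neither do 79.8% of tested genes taken singly.

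Levels of different genes can be compared only per length, here as RPKM (CPM per kilobase of annotated exons). On that scale Orai1, Orai2 and Orai3 held 29.2% ± 2.7, 43.5% ± 1.3 and 27.3% ± 2.4 of the family's level at rest (SD, n = 3). After stimulation Orai1 held 82.2% ± 1.9, Orai2 3.76% ± 0.5 and Orai3 14.0% ± 1.4. Stim1 held 65.8% ± 0.63 of the sensor level at rest and 9.58% ± 0.9 after stimulation, the rest being Stim2. The leading member of both families thus changed in all 3 stimulated libraries, under each of the 3 ways of measuring gene length tried. The summed level did not follow so clearly. For the Orai family it was 50 ± 0.713 RPKM at rest and 59.8 ± 4.41 RPKM after stimulation, but per coding length it was lower after stimulation (237 ± 2.83 and 162 ± 11.1), so that its direction depends on the length used. For the Stim family the sum was 25.7 ± 2.37 and 22.2 ± 1.10 RPKM with overlapping groups, and 49.4 ± 4.65 and 25.9 ± 1.02 per longest transcript with none.

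**Figure D4:**
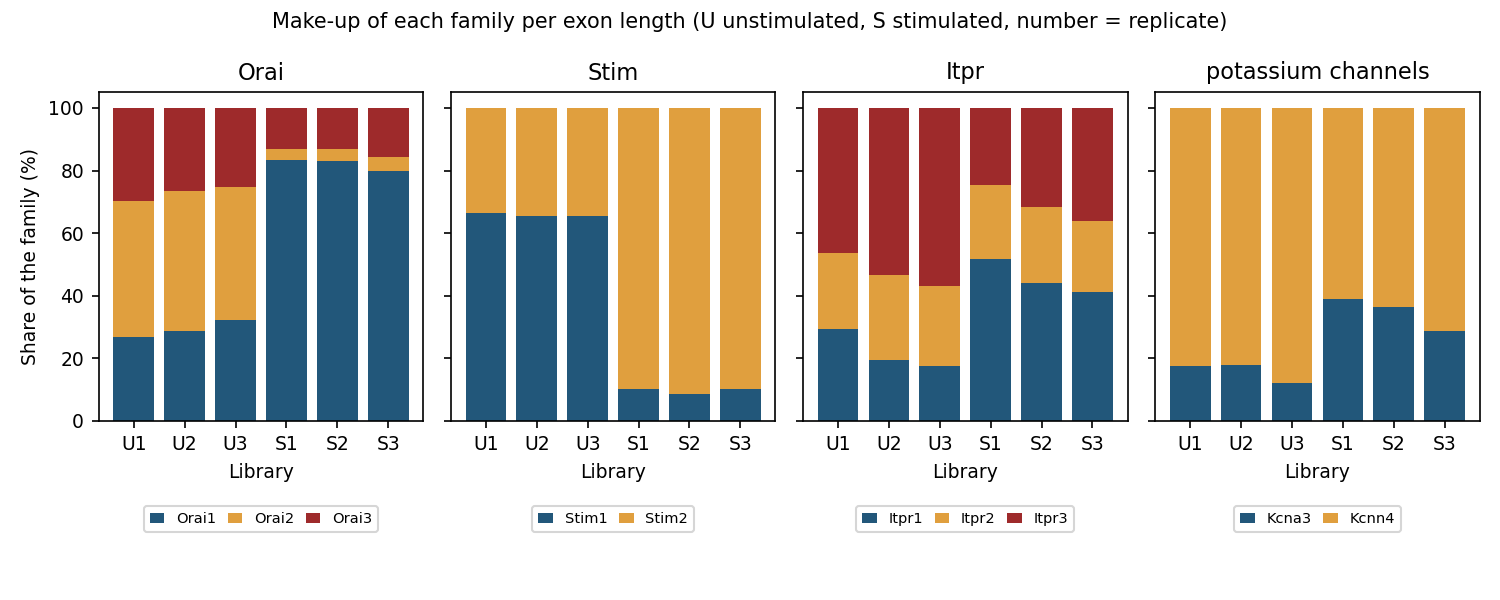
Share of each gene in the summed level of its family, or of Kcna3 and Kcnn4 together, per exon length (percent), 1 bar per library. Orai1 grows from 29.2% to 82.2% of the Orai bars and Stim1 shrinks from 65.8% to 9.58% of the Stim bars on average. In these bars the 3 libraries of a group are close to each other. Shares of Itpr1, Itpr3, Kcna3 and Kcnn4 spread more, with Itpr1 at 29.3%, 19.5% and 17.5% at rest.

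Of the IP3 receptors, which release calcium from the endoplasmic reticulum, 2 of 3 fell, where 39.1% of all tested genes were called lower. With 3 genes this count is no result about the family. Itpr3 stood at 166, 154 and 138 CPM at rest and at 41.8, 41.1 and 44.2 CPM after stimulation. The groups lay well apart, with a fall of 3.60-fold (log2 fold change -1.85, SE 0.084, edgeR adjusted p = 8.6e-08). Itpr2 went from 144, 127 and 101 CPM to 66.3, 51.3 and 46.1 CPM. Its groups did not overlap either, though each spread more than those of Itpr3, and the fall was 2.27-fold (log2 fold change -1.19, SE 0.17, edgeR adjusted p = 0.00028). Itpr2 did not pass the test for more than 2-fold (edgeR glmTreat, adjusted p = 0.13) and passed it with library size alone (0.025), without the 20 most abundant genes in the library sizes (0.022), without stimulated replicate 1 (0.02), without unstimulated replicate 3 (0.027) and without replicate 1 of both groups (0.03). The count of Itpr3 may be affected by the antisense gene Itpr3os, which overlaps 2.58% of its exon bases. No source used here gives the strand setting of the counting. Smaller overlaps on the other strand were found for Itpr1 (Gm44101, 0.988%, and Gm44040, 0.59%) and Orai1 (Gm2479, 0.305%).

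Itpr1 was the least uniform of the 10 genes within groups. Its level was 213, 114 and 86 CPM at rest and 179.8, 116 and 102 CPM after stimulation, so that replicate 1 was highest in both groups and the groups overlapped. The log2 fold change was -0.05 with a 95% interval of -0.99 to 0.89 (edgeR adjusted p = 0.91). In this fit, with group as the only term, the interval leaves room for a change of nearly 2-fold either way. In the same replicate order, Eomes, listed among the NK cell markers and also made by T cells, was at 19.6, 2.78 and 1.70 CPM at rest and at 112, 58.2 and 77.9 CPM after stimulation, and Ighm at 1335, 1832 and 2789 and at 699, 938 and 1251 CPM. The other NK cell markers, Ncr1, Klrb1c and Klra8, were at or below 0.0948 CPM in every library. Their part in the spread of Itpr1 was not tested.

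Relative to its relatives, Itpr1 gained. Read counts of Itpr1 were 1.28, 0.739 and 0.623 times those of Itpr3 at rest and 4.30, 2.82 and 2.32 times after stimulation, a 3.62-fold change, and the Itpr1 to Itpr2 ratio changed 2.30-fold. Itpr2 to Itpr3 shifted least of the 8 pairs, by 1.58-fold. Per exon length Itpr1 held 22.1% ± 6.3 of the family at rest and 45.7% ± 5.5 after stimulation, and Itpr3 52.3% ± 5.5 and 30.8% ± 5.8 (SD, n = 3). The summed level of the IP3 receptors was 32.8 ± 6.54 RPKM at rest and 15.6 ± 2.88 RPKM after stimulation, 2.10-fold lower, and 1.82-fold lower per longest transcript and per coding length. Itpr1 and Itpr2 both lie on chromosome 6 (108213096 to 108551109, and 146108299 to 146502223 on the minus strand) and Itpr3 on chromosome 17 (27057304 to 27122223).

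Of the potassium channels, Kcna3 rose and Kcnn4 did not pass the test. Kcna3 encodes Kv1.3, the voltage-gated channel of T cells, in a gene annotated as a single exon on chromosome 3 (107036169 to 107038070). It stood at 22.9, 25.0 and 16.5 CPM at rest and at 67.9, 62.7 and 47.3 CPM after stimulation. Replicate 3 was lowest in both groups, and all stimulated libraries lay above all unstimulated ones. The rise was 2.76-fold (log2 fold change 1.47, SE 0.18, edgeR adjusted p = 0.00014). The 2-fold test (edgeR glmTreat, adjusted p = 0.014) was no longer passed with no filter on low counts (0.052) and without replicate 1 of both groups (0.078).

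Kcnn4 encodes KCa3.1, which calcium opens through calmodulin and which is known to be induced when naive T cells become blasts. It lies on chromosome 7 (24370263 to 24386690). It was at 293, 309.7 and 320.0 CPM at rest and at 288, 295 and 317 CPM after stimulation. The groups overlapped, and the log2 fold change was -0.03 with a 95% interval of -0.19 to 0.12 (edgeR adjusted p = 0.65), the tightest interval of the 10 genes. With library sizes that leave out the 20 most abundant genes it was called lower, by 0.19 (adjusted p = 0.043). The Kcna3 to Kcnn4 ratio of reads rose from 0.0784, 0.0808 and 0.0516 to 0.236, 0.212 and 0.149, a 2.84-fold change.

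By level per exon length, Kcnn4 was first of the 10 genes in both groups, at 60.1 ± 2.72 RPKM at rest and 58.7 ± 2.90 RPKM after stimulation (SD, n = 3), above 94.3% and 92.8% of tested genes. At rest Orai2 (21.8 ± 0.489) came next, and the order Stim1 (16.9 ± 1.64), Itpr3 (16.9 ± 1.56), Orai1 (14.6 ± 1.58), Orai3 (13.6 ± 1.05), Kcna3 (11.3 ± 2.33), Stim2 (8.81 ± 0.759), Itpr2 (8.38 ± 1.46) and Itpr1 (7.52 ± 3.66) was a chain in which each gene's libraries overlapped those of the next. After stimulation Orai1 (49.2 ± 4.52), Kcna3 (31.2 ± 5.64) and Stim2 (20.1 ± 1.20) followed Kcnn4 with no overlap between neighbours. Orai3 (8.34 ± 0.494) and Itpr1 (7.25 ± 2.25) overlapped, Itpr3 (4.70 ± 0.181) and Itpr2 (3.69 ± 0.710) came after them, and Orai2 (2.24 ± 0.219) and Stim1 (2.12 ± 0.101), which followed Kcnn4 at rest, overlapped at the bottom. Per longest transcript or coding length Kcnn4 stayed first in both groups and Orai1 second after stimulation, while places further down changed.

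The other genes of calcium and potassium handling were taken from lists of known members of each process. Their counts are read against the 38.4% of all tested genes called higher and the 39.1% called lower, and a list near those shares is no result about its genes. Of 10 tested regulators of store-operated entry, 4 rose and 4 fell (median log2 fold change 0.12), which is near those shares. Saraf, which switches the STIM-ORAI complex off, dropped from 501 ± 91.3 to 72.6 ± 5.52 CPM, by 6.90-fold (SD, n = 3; edgeR adjusted p = 2.6e-07). Esyt1, which tethers the endoplasmic reticulum to the plasma membrane, fell 2.43-fold, and the septins Sept2 and Sept5 rose 1.80-fold and 7.82-fold, Sept5 from only 0.263 CPM. A further septin of the list, Sept4, named after its values were seen, was called lower (log2 fold change -2.44, edgeR adjusted p = 0.0056). Its level was also low, with means of 0.844 CPM at rest and 0.153 CPM after stimulation, and 0 CPM in stimulated replicate 3.

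Of 14 tested genes that make IP3 or act in the breakdown of IP3 and its products, 9 fell and 3 rose (median -0.98), against 39.1% and 38.4% over all tested genes. Plcg1, the phospholipase below the T cell receptor, fell 2.80-fold from 320.2 ± 11.2 to 115 ± 0.276 CPM, and Itpkb, the kinase that converts IP3, fell 2.83-fold from 211 ± 20.9 to 74.7 ± 2.24 CPM. Its relative Itpkc rose 2.44-fold and the phosphatase Impa1 1.32-fold. Among 11 tested partners of IP3 receptors and other release channels, 6 rose and 3 fell (median 0.26), against 38.4% and 39.1%. Itprid2 and Ahcyl1, which bind IP3 receptors, rose 2.15-fold and 1.90-fold, the ryanodine receptor Ryr3 fell 11.8-fold from a low 4.59 ± 1.23 CPM, and Tmco1 fell 1.51-fold.

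Of 5 tested genes for pumps and exchangers 2 rose and 3 fell (median -0.54), against 38.4% and 39.1% over all tested genes. Atp2a2 (SERCA2), which refills the endoplasmic reticulum, rose 4.21-fold from 139 ± 18.9 to 586 ± 64.4 CPM, and Atp2a3 (SERCA3), the relative of blood cells, fell 3.77-fold from 635 ± 66.0 to 168 ± 8.07 CPM (edgeR adjusted p = 4.1e-07 and 8.8e-08). At the plasma membrane Atp2b4 fell 4.75-fold, and the Golgi pump Atp2c1 rose 1.58-fold. Of 15 tested genes on the list for mitochondrial calcium uptake and exit, 7 rose and 6 fell (median 0.07), against the same 38.4% and 39.1%. Among them were Letm1 (up 2.17-fold) and the sodium-calcium exchanger Slc8b1 (down 4.75-fold). Tmbim1 (up 3.95-fold) is counted because it was listed, and no place in mitochondria is claimed for it.

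Of 27 tested other calcium-permeable channels and their subunits, 18 fell and 3 rose (median -0.81), against 39.1% and 38.4% over all tested genes. Tpcn1, a channel of endosomes and lysosomes, fell 11.7-fold from 95 ± 3.60 to 8.12 ± 1.38 CPM, and Cacnb3, the beta subunit of voltage-gated channels, 8.89-fold from 116 ± 5.97 to 13 ± 1.34 CPM. The mechanically gated Piezo1 rose 3.66-fold from 73.5 ± 7.23 to 269 ± 17.6 CPM, and Mcoln2 2.02-fold with overlapping groups. Of 14 tested other potassium channels and subunits, 8 fell and 4 rose (median -0.65), against the same 39.1% and 38.4%. Kcnk5, a potassium channel of the KCNK family, rose 3.00-fold from 40.3 ± 12.9 to 121 ± 6.75 CPM and Kcnq5 rose 2.02-fold. Kcnab2, an accessory subunit of Kv1 channels, fell 1.87-fold from 319 ± 5.22 to 170.4 ± 8.79 CPM and Kcnh2 fell 6.33-fold. Of 10 genes that regulate KCa3.1 or Kv1.3, 5 rose and 4 fell (median 0.08), against 38.4% and 39.1%. Nme2, a kinase that activates KCa3.1, and the phosphatase Pgam5, which opposes it, rose 2.72-fold and 2.46-fold, while the lipid phosphatase Mtmr6 fell 2.89-fold.

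**Figure D5:**
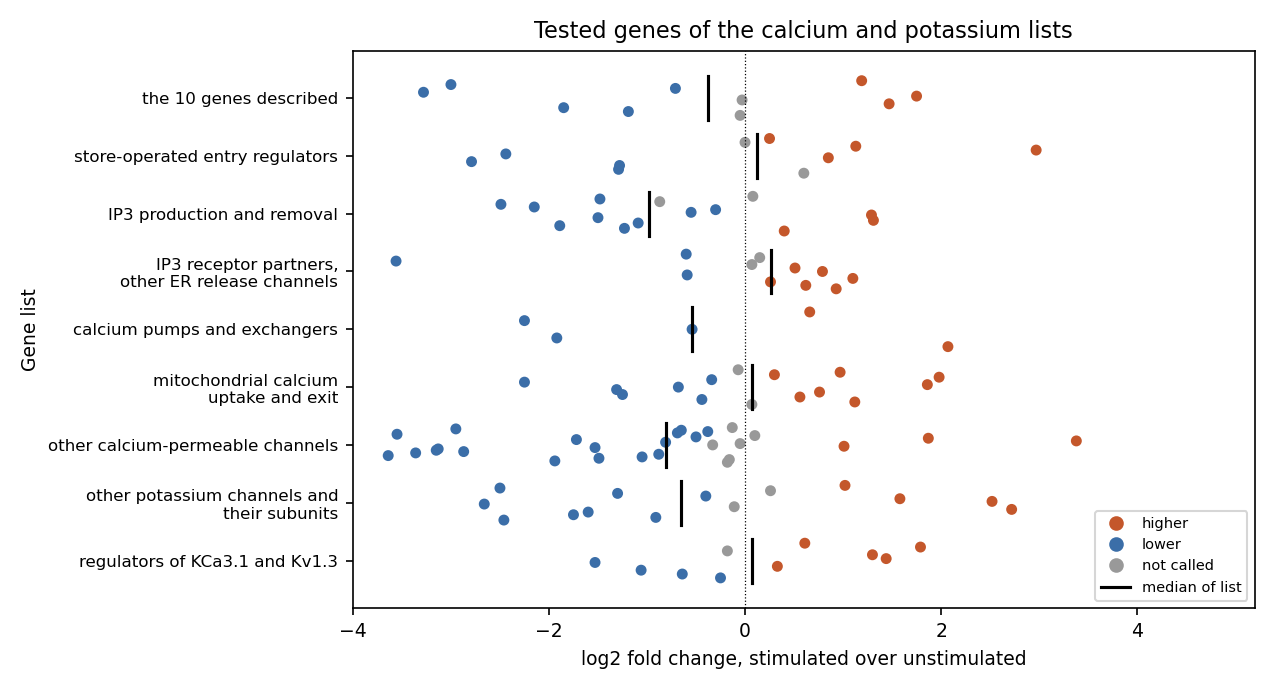
Log2 fold change, stimulated over unstimulated, of every tested gene in the calcium and potassium lists, with a black line at the median of each list. The median of the other calcium-permeable channels lies at -0.81 and that of the IP3 production and removal genes at -0.98, while the 10 genes described spread from -3.28 to 1.75.

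The patterns closest to that of Orai1, the gene with the largest rise, were sought among 10663 protein-coding genes by the root mean square difference of centred log2 CPM over the 6 libraries. They were Crls1 (0.048), Qtrt1 (0.053) and Magohb (0.061), which rose 3.39-fold, 3.43-fold and 3.58-fold. Closest to Orai2, the gene with the largest fall, were Pdcd4 (0.044), Zer1 (0.053) and Zfp395 (0.057), which fell 9.21-fold, 9.16-fold and 10.1-fold. With 6 libraries in 2 groups, likeness of this kind is mainly likeness in the size of the change.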

How the data were processed

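RNA was measured in 6 libraries of mouse CD4+ T cells, 3 per group, with groups and replicate numbers from the labels. The authors deposited 1 table of raw read counts per Ensembl gene, 1 column per library. The tools listed, with no role given, are HTSeq, STAR 2.5.2a and DESeq2, and the build is GRCm38, per the submitters' processing notes. The annotation release and strand setting of the counting were not given in the sources used here, so overlapping and antisense reads cannot be told apart. Symbols, coordinates and lengths came from GENCODE M21 (GRCm38), which named 48058 of 48440 identifiers, and promoter windows from RefSeq (GRCm38.p6).

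Counts were tested with edgeR 4.0.16 in R 4.3.3 (filterByExpr, TMM, robust glmQLFit, group as the only term, two-sided, Benjamini-Hochberg adjustment over 13314 genes, threshold 0.05) and with glmTreat against 2-fold. The SE came from the change and its F statistic. CPM used TMM-scaled library sizes, and RPKM divided CPM by the union of annotated exons. Ratios had 0.5 added to each count. The alternatives were RLE, library size alone, library sizes without the 20 most abundant genes, other filters, DESeq2 1.42.0, limma-voom (limma 3.58.1), the replicate block, leaving out libraries, an adjusted p of 0.01 and other gene lengths. The steps were tested on simulated data, with 100 genes changed 1.5-fold and 100 changed 2-fold among 13314. Of these, 66% and 97% were recovered, and 6.86% of calls were false. Far fewer genes changed there than were called in the data, so the simulation did not test the scaling of these libraries. Python 3.11.15 handled the tables.

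The 10 genes and the lists were chosen with earlier results of these data known. The text names all 10 genes, and from each list up to 2 genes that rose and 2 that fell with the smallest p and a mean of at least 1 CPM. Some genes that this rule picks are not reported here. Of the listed symbols, only Itprip matched no row. The labels speak of replicates without naming separate mice or cultures, so the spread that p-values measure may be that of technical repeats. Pairs of libraries in a group differed by more than counting noise (dispersion index 8.76 to 34.8, where counting noise gives about 1). The lowest count of the 10 genes in a library was 341. Counting error weighs most for the lowest counts, and its part in the spread of single genes was not measured. RNA content per cell was not measured, and all changes are relative to the rest of the library.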

Additional observations from a re-analysis of the deposited data

How the results depend on the processing

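Each of the 10 genes kept its direction wherever it was called, and its side of the threshold, under all 17 alternatives with 1 exception, Kcnn4 with library sizes that leave out the 20 most abundant genes (-0.19, adjusted p = 0.043). That is 169 of 170 comparisons. Library size alone moved the median log2 fold change of all genes by -0.14, so a change of about that size can be lost or gained with another scaling. The adjusted p of 0.01 also gave 3 genes higher and 5 lower. Counts past 2-fold stood between 2 and 3 upward and between 3 and 4 downward over the alternatives. The log2 fold change of Itpr1 ran from -0.33 to 0.41 over its alternatives and was never called (adjusted p from 0.23 to 0.97).

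Same-numbered libraries deviated together with correlations of 0.361, 0.0845 and 0.38 for replicates 1, 2 and 3, each the highest for its number. As the second is weak and the labels name no shared animal, the numbers were not taken as pairs. With the replicate block, the same counts of 3 higher and 5 lower were found, with Orai2 at -3.28 and Itpr1 at 0.01. The SE of Itpr1 was 0.088 with the block and 0.38 without it. With the block Itpr2 passed the 2-fold test (edgeR glmTreat, adjusted p = 0.0046), and 10842 genes were called in all against 10320. A paired exact test of 3 differences cannot go below p = 0.25.

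Shares per length depend on the length used. With the longest transcript and the longest coding sequence, Orai2 held 51.2% and 70.3% of its family at rest and 4.75% and 10.7% after stimulation. Stim1 held 81.4% and 78.7% at rest and 19.5% and 16.9% after. Itpr3 held 41.8% and 38.2% at rest and 21.3% and 19.4% after. Of the level of Kcna3 and Kcnn4 together, Kcnn4 held 88.2% and 94.7% at rest and 72.6% and 86.2% after. The direction of each shift was the same under all 3 lengths.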
